A study of Mus musculus with 16 samples.

Results

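Primed distal stretches are stretches of H3K4Me1 that carried neither H3K27Ac nor H3K27Me3 and lay away from gene starts, in mouse ES cells of both sexes. They were chosen by measured values, the lists of enriched regions that the authors deposited for each sex and mark. H3K4Me1 regions of the female and the male list were merged into stretches on chromosomes 1 to 19. A stretch was kept where it lay over 5 kb from the transcription start site (TSS) of any protein-coding gene, held H3K4Me1 from both lists, and overlapped no H3K27Ac and no H3K27Me3 region of either list by so much as 1 bp. Of 39121 stretches, 21184 lay over 5 kb from a TSS, and 12539 of these held H3K4Me1 from both lists. The primed stretches were 3759 of those 12539, or 29.98% (29.2 to 30.8%, an exact binomial 95% interval), and 9.61% of all stretches.

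H3K4Me1 is laid down at enhancers by the MLL3 and MLL4 methyltransferases and is found whether or not the enhancer is in use. An enhancer that also carries H3K27Ac is commonly called active, one that carries H3K27Me3, the mark of Polycomb repressive complex 2, is commonly called poised, and one with H3K4Me1 alone is called primed. In ES cells primed enhancers are known as sites that can gain H3K27Ac once the cells differentiate, but a list of regions shows where a mark was enriched, not what a sequence does. The names primed, active and poised are used here for combinations of marks only.

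The study set female (XX) lines against male (XY) lines of ES cells, and the labels name lines 3 and 4 as female and lines 1 and 2 as male. All lines were derived from C57BL/6 x CAST/EiJ crosses, carried no transgene or treatment that the labels name, and grew in serum and LIF on inactivated mouse embryonic fibroblasts, at passages 7 to 10. The labels list 16 libraries, made of 3 marks in each line together with 1 IgG and 1 input library per sex. There was 1 list per sex and mark, named for no single line, and how the lines of a sex entered it was not given. So 6 lists were compared, each of them a single observation without replicates and without a height or score. No test between the sexes was possible, and every interval covers no more than the error of counting. Absence of a region from a list means that the authors' procedure called none there, which is not absence of the mark.

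The labelled cell type was checked against its markers. All 8 ES cell markers, Pou5f1, Nanog, Sox2, Esrrb, Zfp42, Klf4, Tdgf1 and Tfcp2l1, had H3K27Ac within 2 kb of a TSS in both lists, and 2 of them, Esrrb and Klf4, also had H3K27Me3 there. Of 8 markers of the fibroblasts that served as feeders, 1 had H3K27Ac there in the female list and 3 in the male list, and 5 had H3K27Me3 in each list. A primed stretch lay over or within 50 kb of a TSS of 2 of the 8 ES cell markers and of 4 of the 8 fibroblast markers. In the longer lists described further on, it did so at 5 of 19 pluripotency factors and 4 of 20 fibroblast genes, where the share of all genes was 19.0%. The paper states that feeders were depleted before immunoprecipitation and that residual ones made up a small part of the cells. The part of feeder chromatin in these stretches was not tested. On the autosomes the female lists held 38822 H3K4Me1, 27785 H3K27Ac and 18270 H3K27Me3 regions, and the male lists 34459, 25301 and 14977.

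To show what such DNA looks like, the central 200 bases are printed for the primed, the active and the poised stretch whose GC content was nearest to the median of its class. Active stretches here are the 3726 distal stretches with H3K4Me1 and H3K27Ac in both lists and no H3K27Me3, and poised stretches are the 1271 with H3K4Me1 and H3K27Me3 in both lists and no H3K27Ac. Capitals mark CpG dinucleotides, of which the windows held 2, 3 and 5. All coordinates are those of NCBIM37 (mm9), counted from 1.
primed, chr7:82559000-82559199, plus strand: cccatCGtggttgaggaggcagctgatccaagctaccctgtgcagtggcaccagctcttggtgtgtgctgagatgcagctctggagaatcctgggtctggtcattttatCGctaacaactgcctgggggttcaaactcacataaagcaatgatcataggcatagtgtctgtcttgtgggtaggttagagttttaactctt
active, chr1:43244800-43244999, plus strand: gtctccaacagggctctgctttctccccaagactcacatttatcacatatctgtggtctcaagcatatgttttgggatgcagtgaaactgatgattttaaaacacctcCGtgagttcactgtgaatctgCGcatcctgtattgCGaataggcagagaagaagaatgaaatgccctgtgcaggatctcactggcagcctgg
poised, chr19:32669400-32669599, plus strand: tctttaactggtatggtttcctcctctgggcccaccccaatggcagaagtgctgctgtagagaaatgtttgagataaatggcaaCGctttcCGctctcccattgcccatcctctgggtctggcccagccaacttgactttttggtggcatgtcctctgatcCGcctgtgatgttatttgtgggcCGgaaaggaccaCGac
The primed example spanned chr7:82556801-82561399 between genes, 39.0 kb from a TSS of Akap13, which encodes an anchoring protein for protein kinase A. The female list covered 1599 bp of it and the male list 4599 bp. The active example was nearest to Fhl2 and the poised one to Papss2, 18.8 and 22.7 kb from a TSS.

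Primed stretches were as wide as poised ones and narrower than active ones, and their base composition lay between the 2 classes, closer to the active one. The median width was 5199 bp in primed stretches (quartiles 3799 and 7199 bp), 7999 bp in active and 5199 bp in poised ones. The median GC content was 45.4% in primed, 44.7% in active and 48.7% in poised stretches, with 41.9% over the autosomes. CpG dinucleotides, the sites of DNA methylation, numbered 11.4 per kb in the median primed stretch, against 10.4 in active ones, 15.7 in poised ones and 8.51 over the autosomes. None of the 3759 primed stretches reached a CpG observed to expected ratio of 0.6 over its whole width, and 2 active and 15 poised stretches did. A ratio of 0.6 is a usual mark of a CpG island, but shorter windows inside the stretches were not searched for islands. Wide stretches were seldom primed. The primed share of distal shared stretches was 46.6% under 3 kb, 40.5% at 3 to 5 kb, 30.9% at 5 to 8 kb and 16.8% over 8 kb, and a wider stretch has more bases on which another mark can fall. The order in GC content was the same in each of these width classes.

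**Figure D1:**
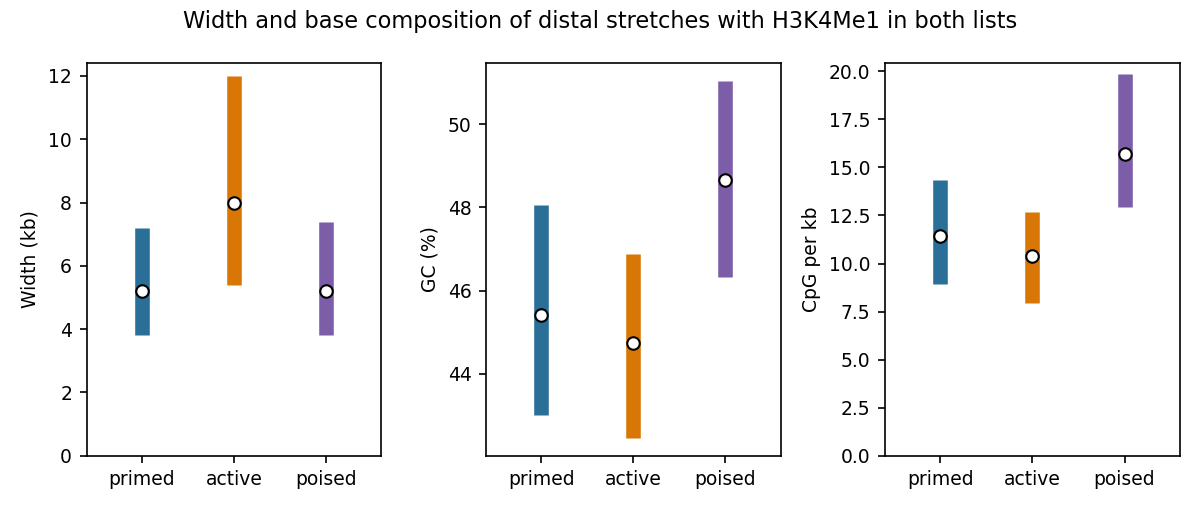
Medians (circles) and quartiles (bars) of width in kb, GC content in percent and CpG dinucleotides per kb over 3759 primed, 3726 active and 1271 poised distal stretches. The GC axis does not start at 0. Primed stretches had the width of poised ones and a GC content and CpG density near those of active ones.

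The widest primed stretch, 49399 bp at chr16:94833201-94882599, lay over Dyrk1a, which encodes a protein kinase of the Down syndrome region. The female list covered 47398 bp of it in 2 regions and the male list 48797 bp in 3 regions, and the nearest H3K27Ac region was 2.202 kb away in the female and 5.602 kb in the male list. The next in width were 34599 bp in introns of 1700081L11Rik, 33399 bp over Ntn1, which encodes the axon guidance cue netrin-1, 31199 bp in introns of Med13l, a subunit of the Mediator kinase module, and 27799 bp in introns of Glg1. All 5 lay over gene bodies. The 5 farthest from a TSS were narrow, between 2799 and 6399 bp, and lay between genes. The farthest was 1365 kb from its nearest TSS, that of Efnb2, and the others were nearest to Celf4, Cox7c, Lphn2 and Stxbp6. At the limit of 5 kb, the nearest stretches kept lay 5017, 5023 and 5030 bp from TSSs of Lrtm2, Camk1 and 2010106G01Rik, and the nearest ones left out lay 4992, 4984 and 4970 bp from those of Ptpn18, Chrnb3 and Zmym2.

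Primed stretches lay inside genes more often than active or poised ones. The midpoint fell in an intron of a protein-coding gene in 2158 of 3759 primed stretches, 57.4% (55.8 to 59.0%), against 43.7% (42.1 to 45.4%) of active and 23.4% (21.1 to 25.8%) of poised ones. Of the 2092 Mb of autosomal sequence over 5 kb from a TSS, 33.7% was intronic. Exons held the midpoint of 146 primed stretches, 3.88%, and 1455, or 38.7%, lay between genes. Over all 12539 distal shared stretches, the primed ones included, 43.3% of midpoints were intronic.

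**Figure D2:**
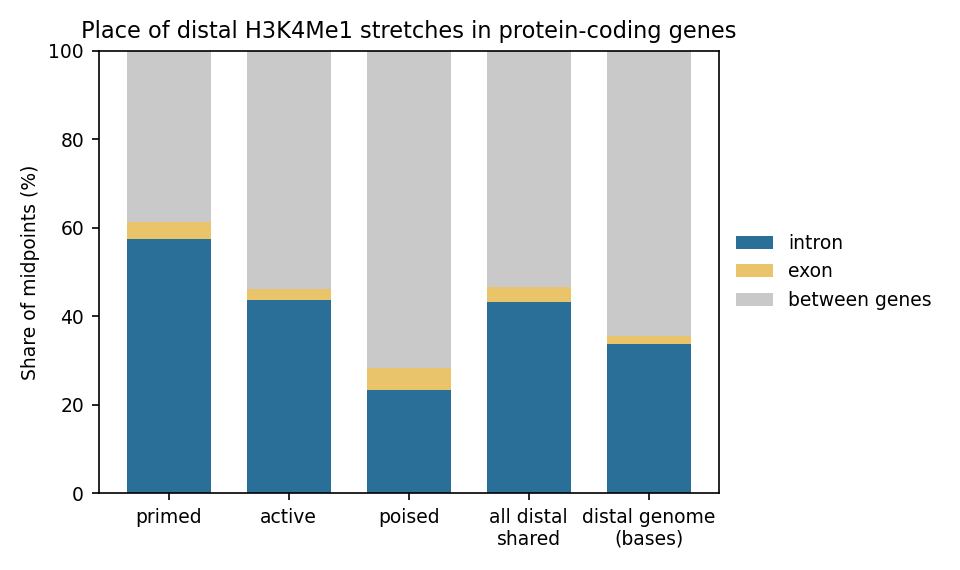
Share of stretch midpoints, in percent, in introns, exons or between protein-coding genes, for primed, active and poised stretches, for all distal stretches with H3K4Me1 in both lists, and for the bases of the genome over 5 kb from a TSS. The intron share was 57.4% in primed and 33.7% in the distal genome.

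The intron share of primed stretches was above that of the other classes at every width. It was 44.3% in primed, 28.0% in active and 23.4% in poised stretches under 3 kb, and 73.2%, 49.8% and 30.8% over 8 kb. Leaving out the 48 gene models over 1 Mb, chosen after seeing the data because some are unusually long models, gave 56.3% in primed, 42.5% in active and 22.4% in poised stretches. The distance to the nearest TSS hardly separated the classes, with medians of 25980 bp in primed, 29640 bp in active and 21960 bp in poised stretches. Distances of 5 to 10 kb accounted for 16.4% of primed stretches and those over 100 kb for 12.7%. A TSS of some other annotated gene, such as a noncoding RNA or pseudogene, lay inside 125 primed stretches, 3.33% (2.78 to 3.95%), against 6.98% of active and 8.97% of poised ones.

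Primed stretches were denser in genes with H3K27Ac at the promoter in both lists than in genes with it in neither. Genes of 20 kb to 1 Mb were grouped by the marks within 2 kb of a TSS, where both lists gave the same marks. In bodies of the 3536 genes with H3K27Ac alone at the promoter there were 3.99 primed stretches per Mb (exact Poisson 95% interval 3.74 to 4.25), and in the 1180 genes with both H3K27Ac and H3K27Me3 there were 3.88 (3.54 to 4.25). In the 1459 genes with H3K27Me3 alone there were 1.12 (0.971 to 1.28), and in the 1496 genes with neither mark 0.848 (0.692 to 1.03). Stated per gene, 668 of 3536 genes with H3K27Ac alone held at least 1 primed stretch, 18.9%, against 163 of 1459 with H3K27Me3 alone, 11.2%, and 83 of 1496 with neither, 5.55%. The share was highest with both marks, 290 of 1180 or 24.6%. Over all 9280 genes of this length, 1545 held at least 1, or 16.65%. The order of the rates per Mb was kept in each class of gene length, and the contrast was largest in the longest genes. At 100 kb or longer the rates were 4.48 per Mb with H3K27Ac alone, 4.28 with both marks, 0.976 with H3K27Me3 alone and 0.886 with neither. In the same order they were 2.72, 2.42, 1.07 and 0.803 at 20 to 50 kb. At 50 to 100 kb they were 4.43, 3.43, 2.01 and 0.788. Primed stretches were chosen for lacking both marks in the same lists that group these genes. The part of that choice in these rates was not tested.

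Active stretches, whose own H3K27Ac was used to choose them, had the same pattern with 2.96, 3.18, 0.873 and 0.807 per Mb in the same 4 groups. Poised stretches differed, with 0.118, 0.507, 0.715 and 0.156 per Mb. Of 2264 primed stretches with a host gene of up to 1 Mb, 42.7% lay in a gene with H3K27Ac alone at its promoter and 9.45% in one with H3K27Me3 alone, while the shares of 346 poised stretches were 8.67% and 41.3%. The median primed stretch lay at 0.541 of the way from the first TSS to the gene's end, 49.8 kb downstream in a host of 120.2 kb, and each further 10% of the gene's length after the first 10% held between 9.14% and 12.1% of them. As a share of the gene's length, poised stretches lay farther toward the 3′ end, with a median of 0.685 and 18.2% in each of the last 2 steps of 10%. In kb they lay nearer the first TSS, at a median of 31.7 kb in shorter hosts with a median of 66.5 kb. The part of host length and of the 5 kb limit in this difference was not tested.

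**Figure D3:**
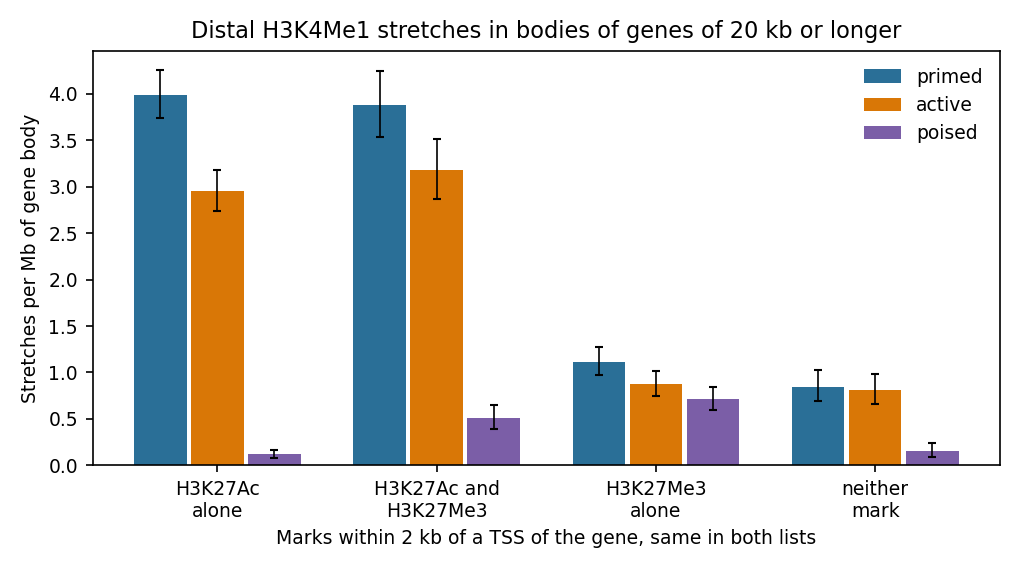
Primed, active and poised stretches per Mb of gene body in protein-coding genes of 20 kb to 1 Mb, by the marks within 2 kb of a TSS that both lists gave; error bars are exact Poisson 95% intervals. Primed stretches numbered 3.99 per Mb in genes with H3K27Ac alone and 1.12 per Mb in genes with H3K27Me3 alone.

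Some genes held several primed stretches. At least 1 lay over the body of 1727 of 21418 autosomal protein-coding genes (8.06%). Of these, 1290 held just 1, 148 held 3 or more and 36 held 5 or more. The nearest stretch was primed for 15.2% of primed, 13.1% of active, 7.40% of poised and 12.6% of all distal shared stretches. Genes with one were long, with a median length of 92.8 kb against 13.4 kb for those without. Gm20388, with 17, is a model of 4435 kb on chromosome 8, and Fgfr2, with 8, is a model of 3009 kb in this annotation. Among genes under 1 Mb, Magi1 held 16, and Ext1, Odz4, Ptprg and Zfand3 held 9 each. Fto held 8, and Agap1, Apbb2, Cadm1 and Hdac4 held 7 each. Magi1 encodes a scaffold protein of tight junctions, Ext1 a glycosyltransferase of heparan sulfate synthesis, Odz4 (now Tenm4) a teneurin, Ptprg a receptor tyrosine phosphatase, and Fto an RNA demethylase. Of these, Magi1, Zfand3 and Fto had H3K27Ac and no H3K27Me3 at the promoter in both lists.

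In Magi1, at chr6:93625449-94233316, the 16 primed stretches ranged from 2999 to 23199 bp and lay beside 6 active and no poised ones. The female list covered 95.4 kb of them and the male list 122.8 kb. The male cover was the larger in 10 of the 16, and the ratio of female to male cover ran from 0.459 to 3.08. The widest, chr6:94138401-94161599, had 10798 bp in the female list and 23199 bp in the male list. H3K27Ac lay within 5 kb of 4 of them in the female list and was 37.2 kb from the most isolated one.

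Zfand3, a zinc finger gene of 204.9 kb, held 9 primed stretches and no active or poised one. They ran from 14.4 kb to 196.4 kb from a TSS, and the nearest H3K27Ac region of the female list was 13.6 to 108.6 kb away. Their widths were 4199 to 12999 bp, and the female list covered more in 4 and the male list in 5. The 1 Mb window that holds Zfand3, chr17:30000001-31000000, was the densest of 2482, with 18 primed of 28 distal shared stretches. The window chr6:93000001-94000000, in which Magi1 was the one protein-coding gene, came next with 16 of 26. These are not the same 16 as in Magi1, which runs on past the end of the window. The 216 windows with 5 or more held 36.7% of all primed stretches, and their share of all distal shared stretches was not counted.

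Per length, among genes of at least 20 kb with 5 or more primed stretches, Ppap2a was the densest, with 6 in 66.99 kb, or 8.96 per 100 kb. Ppap2a encodes a lipid phosphate phosphatase. The female list covered 6199, 8999, 11598, 8399, 2799 and 3999 bp of the 6 stretches in order along chromosome 13, and the male list 3799, 6399, 8599, 5599, 2399 and 3599 bp. The female cover was the larger in all 6, with ratios of 1.11 to 1.63. Mtap7, Zfand3, Hdac4, Ext1, Ntn1, Tcf7l2, Zswim6, Ccdc109a and Magi1 followed, with 4.51 to 2.63 per 100 kb. In Zswim6 the male cover was the larger in all 5, and in Agap1 in all 7. Apart from Ppap2a and Zswim6, each of the 10 densest genes had stretches of both kinds. Over all primed stretches the male cover was the larger in 57.4%. Stretches of 1 gene, from 1 list per sex, are not independent observations. Hdac4, a class IIa histone deacetylase, was the one among these 10 densest genes with neither H3K27Ac nor H3K27Me3 within 2 kb of a TSS in either list.

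The male list covered somewhat more of the primed stretches than the female list. The median cover was 3999 bp in the female and 4599 bp in the male list, and the median ratio of female to male cover was 0.923 (quartiles 0.727 and 1.14). The male cover was the larger in 2156 stretches, 57.4% (55.8 to 58.9%), the female cover in 1394, 37.1%, and 209 were equal. Summed over all 3759, the female list covered 18.1 Mb and the male list 19.6 Mb. Over all 26334 autosomal stretches with H3K4Me1 from both lists the female list covered 252.9 Mb and the male list 255.9 Mb, and the male cover was the larger in 52.1%. It was the larger in 56.9% (55.3 to 58.5%) of active stretches, close to the primed share, and in 53.1% (50.3 to 55.9%) of poised ones. Each list is 1 observation, so a difference of sex cannot be told apart from one of library, depth or threshold.

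Large differences were uncommon. The female cover was at least 2-fold the male cover in 116 primed stretches, 3.09% (2.56 to 3.69%), where 2.51% of all stretches with both lists passed the same limit. It was no more than 0.5 times the male cover in 294, 7.82% (6.98 to 8.73%), where 4.64% of all passed. Active stretches passed these limits in 1.21% and 4.59% and poised ones in 2.99% and 5.11%. The chromosomes did not differ much, with a median ratio between 0.855 on chromosome 18 and 1.0 on chromosome 11. A primed stretch usually was a single region of each list, in 3503 or 93.2%, and both lists gave the same start and end in 71. The bases present in both lists made up 71.4% of the median primed stretch, 78.8% of the active and 74.99% of the poised one.

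**Figure D4:**
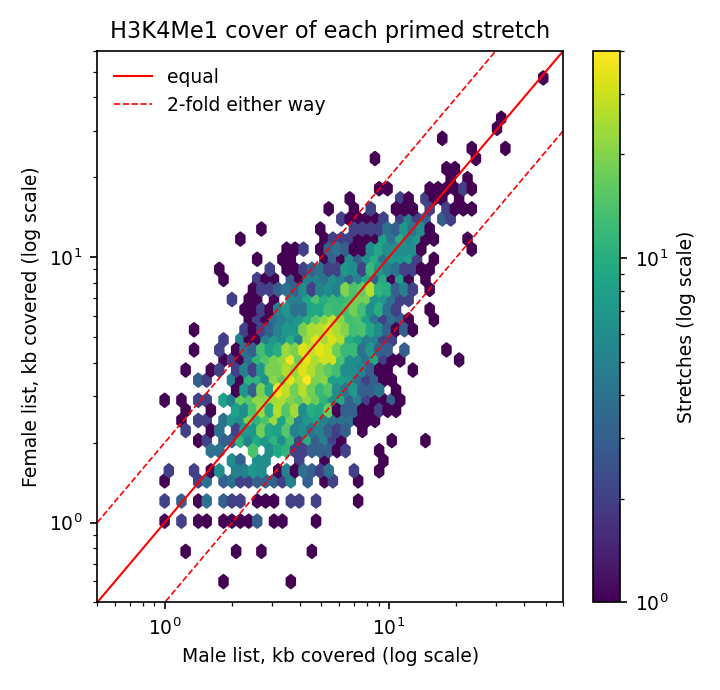
Kilobases of each of the 3759 primed stretches covered by H3K4Me1 regions of the female list (vertical, log scale) against the male list (horizontal, log scale); colour gives the number of stretches per cell, the solid line equality and the dashed lines a 2-fold difference. Most stretches lay within 2-fold, and 2156 lay on the male side of the line.

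The most uneven primed stretches, among those with at least 2 kb in each list, included the following. At Rpl24, which encodes a protein of the large ribosomal subunit, the female list covered 11999 bp and the male list 2199 bp, a ratio of 5.46. Near Osbpl10, an oxysterol-binding protein gene, the female list covered 12799 bp and the male list 2799 bp, and within Lrig3, Ptprg and Nrf1 the ratios were 3.69, 3.24 and 3.23. At the other end, the female list covered 4199 bp and the male list 20398 bp at Zswim6, a ratio of 0.206. Creb3l2, Arid1b and Dag1 had ratios of 0.255, 0.259 and 0.264. These stretches were picked by their ratios, which are descriptions of single regions.

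Other marks lay at some distance. The nearest H3K27Ac region was at a median of 15.2 kb from a primed stretch in the female list and 16.2 kb in the male list, and the nearest H3K27Me3 region at 36.4 kb in the female and 46.2 kb in the male list. Within 10 kb, 41.2% of primed stretches had H3K27Ac of either list, 24.0% had H3K27Me3, and 46.7% (45.1 to 48.3%) had neither. In 27 primed stretches another mark adjoined with no gap on the 200-bp grid of the files. A mark called within 5 kb by a single list was more often called by the female one. For H3K27Ac this held at 195 primed stretches, against 111 where the male list alone called it, and for H3K27Me3 at 215 against 90. The female H3K27Ac and H3K27Me3 lists are also the longer ones, as given above, and their part in these counts was not tested. The ratio of female to male H3K4Me1 cover had a median of 0.966 at the 195, 0.917 at the 111 and 0.917 at the 2984 stretches with no H3K27Ac within 5 kb. For H3K27Me3 it was 0.944 at the 215, 1.0 at the 90, 0.90 where both lists had it and 0.919 at the 3266 stretches with none. The ranges between the quartiles overlapped in all these groups.

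**Figure D5:**
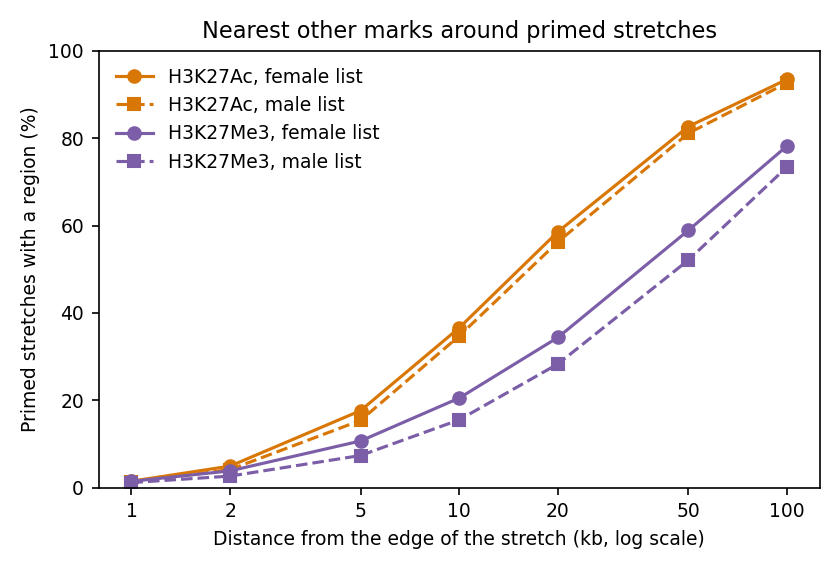
Percent of the 3759 primed stretches with an H3K27Ac or H3K27Me3 region of the female (solid) or male (dashed) list within a given distance of their edge, in kb on a log scale. At 10 kb the values were 36.6% and 34.7% for H3K27Ac and 20.5% and 15.6% for H3K27Me3, female list first.

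The H3K4Me1 stretches found in 1 list only, distal and without another mark, numbered 5363 and had similar surroundings, with a median distance to H3K27Ac of 17.0 kb in the female list and 18.8 kb in the male list. They were narrower, with a median width of 3399 bp. Distal stretches of the female list alone lacked other marks in 64.2% and those of the male list alone in 58.1%, against 29.98% where both lists had H3K4Me1. Among stretches within 5 kb of a TSS with both lists, 1238 of 13795 carried no other mark, or 8.97%.

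Short sequences that factors of ES cells are known to bind were searched on both strands of the central 1 kb. The core shared by Oct4 and Sox2, the pair at the centre of the pluripotency network, was searched as GCATAACAA, and the site of Prdm14, a factor of naive pluripotency and the germ line that can activate or repress its targets, as GGTCTCTAA. Each was in 38 of 3759 primed stretches, 1.01% (0.716 to 1.39%). The Oct4-Sox2 core was in 0.617% of active, 0.472% of poised and 0.598% of all stretches, and the Prdm14 letters in 0.752%, 0.551% and 0.790%. The intervals of these shares overlapped between the 3 classes. The interval of the primed share lay above the share of all stretches for the Oct4-Sox2 core but included it for the Prdm14 letters. Over all 12539 distal shared stretches, the primed ones included, the shares were 0.718% and 0.925%. The intervals of the primed shares included both. For each of them, 3 of the matches nearest to the centre of a primed stretch, chosen after values were seen, are shown with 80 bases each and the match in capitals.
primed, Oct4-Sox2 core, chr5:111599563-111599642, minus strand: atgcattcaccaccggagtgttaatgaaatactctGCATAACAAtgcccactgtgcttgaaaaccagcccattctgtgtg
primed, Oct4-Sox2 core, chr4:100535354-100535433, minus strand: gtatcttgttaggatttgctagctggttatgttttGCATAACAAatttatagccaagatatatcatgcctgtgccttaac
primed, Oct4-Sox2 core, chr4:94199352-94199431, plus strand: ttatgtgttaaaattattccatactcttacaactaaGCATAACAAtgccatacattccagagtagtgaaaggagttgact
primed, Prdm14, chr7:103703165-103703244, minus strand: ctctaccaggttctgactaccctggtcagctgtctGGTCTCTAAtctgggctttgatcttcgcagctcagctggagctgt
primed, Prdm14, chr16:32465523-32465602, minus strand: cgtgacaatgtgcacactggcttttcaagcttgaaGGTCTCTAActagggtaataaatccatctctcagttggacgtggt
primed, Prdm14, chr10:43664306-43664385, minus strand: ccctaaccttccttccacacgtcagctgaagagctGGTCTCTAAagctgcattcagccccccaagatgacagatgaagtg
A match is a run of letters and not a bound site. The first Prdm14 stretch, chr7:103700801-103705599, lay in Odz4, with 4199 bp in the female and 4799 bp in the male list. The second lay in Pcyt1a and the third over Aim1 and Rtn4ip1, with 12799 bp in the female and 6999 bp in the male list. The first Oct4-Sox2 stretch lay between genes, 157.8 kb from Pitpnb, the second in Cachd1 and the third in 5830433M19Rik.

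Among the other 9 letter strings, the interval of the primed share lay above the share of all stretches for the octamer and the Sox string. It lay below that share for the CTCF core. Over all 12539 distal shared stretches these 3 strings were in 6.84%, 4.28% and 0.670%, each within the interval of the primed share. The Sox string was in 5.07% of active and 2.91% of poised stretches. The median GC content was 45.4% in primed stretches and 46.4% in all stretches. The octamer ATGCAAAT of POU factors was in 7.26% of primed (6.45 to 8.14%), 6.41% of active, 6.77% of poised and 5.80% of all stretches. The AP-1 site TGACTCA was in 17.2% of primed, 20.3% of active, 15.2% of poised and 17.2% of all stretches. CAGGGGGCG, the core of the CTCF site, was in 0.532% of primed, 0.564% of active, 1.34% of poised and 0.961% of all stretches. The letters searched for Esrrb (TCAAGGTCA), Klf factors (GGGTGTGGC), Sox factors (CCATTGTT), Tead factors (GGAATGTG), Gata factors (AGATAAGA) and the E-box (CAGCTGCT) were in 3.43%, 3.27%, 4.42%, 5.37%, 3.99% and 10.3% of primed stretches, where they were in 3.38%, 2.94%, 3.75%, 5.08%, 3.97% and 9.70% of all stretches. None of the 11 strings contains another on either strand. Searched over their whole width, 142 primed stretches held the Oct4-Sox2 core and 184 the Prdm14 letters. The narrowest of the 4 primed stretches richest in different motifs, chr9:34009601-34013199, held 7 of the 11 in 3599 bp, 280.5 kb from a TSS of Kirrel3. The female list covered 599 bp of it and the male list all 3599 bp. Its Tead match nearest the centre is shown in 200 bases.
primed, 7 motifs, chr9:34011366-34011565, plus strand: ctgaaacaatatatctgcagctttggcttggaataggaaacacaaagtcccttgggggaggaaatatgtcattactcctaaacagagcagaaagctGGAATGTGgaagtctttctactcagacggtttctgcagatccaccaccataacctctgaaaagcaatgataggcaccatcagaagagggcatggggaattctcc

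A few primed stretches held an annotated TSS of a regulatory RNA gene. The start of any annotated transcript counted, so the gene need not begin there. Of the 125 stretches with a noncoding TSS, 21 held one of a lincRNA and 12 one of a miRNA gene. Meg3, the maternally expressed lincRNA of the Dlk1-Dio3 imprinted cluster, and Mir1906-1 each had such a start in chr12:110782001-110793799. Mir149 lay in chr1:94743001-94747799 and Mir709 in chr8:86604401-86611799. Of the 12 miRNA genes, Mir149 and Mir1906-1 were matched by name in RefSeq (GRCm38.p6), and their mature miRNAs are shown with bases 2 to 8, the seed that pairs with target mRNAs, in capitals.
mmu-miR-149-5p: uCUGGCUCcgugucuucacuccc
mmu-miR-149-3p: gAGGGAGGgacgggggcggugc
mmu-miR-1906: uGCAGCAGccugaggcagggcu
No seed was shared among them. H3K4Me1 over such a gene says nothing of the level of its RNA, which was not measured here.

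Pluripotency factors are the genes closest to the identity of these cells. At least 1 primed stretch lay over the gene or within 50 kb of a TSS in 5 of 19 factors, 26.3% (9.15 to 51.2%), where the share over all 21418 genes was 19.0%. The median length of these factors was 10.6 kb, and the share among all genes under 20 kb was 12.0%. Both shares lie within the interval. Nr5a2, a nuclear receptor that can stand in for Oct4 in reprogramming, had 5. Those in its body were 9999, 9599, 9199 and 12999 bp wide, with 6999, 7198, 8799 and 11998 bp covered in the female list and 9999, 8599, 8999 and 10798 bp in the male list. No active and no poised stretch lay near Nr5a2, whose TSSs had both H3K27Ac and H3K27Me3 in both lists. Esrrb, Dppa3, Tcl1 and Tfcp2l1 had 1 each, and 0 lay near Pou5f1, Nanog, Sox2 or Prdm14.

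The FGF and LIF list had primed stretches at 7 of 20 genes, 35.0% (15.4 to 59.2%), and the WNT and TGF beta list at 7 of 24, 29.2%, against 19.0% of all genes. The shares among all genes were 12.0% under 20 kb, 20.3% at 20 to 50 kb, 31.3% at 50 to 100 kb and 41.3% at 100 to 300 kb, and the median lengths of these lists were 56.4 and 30.9 kb. Fgfr2 had 8 over its model of 3009 kb, of which the farthest lay 1130 kb from an Fgfr2 TSS. Igf1r, a growth factor receptor, had 4 in its body. Lifr, the LIF receptor that keeps these cultures undifferentiated, had 2, with 4799 bp in the female and 10599 bp in the male list in the first, and 5199 bp in the female and 4199 bp in the male list in the second. Il6st, Stat3, Etv5 and Spry2 had 1 each. Tcf7l2, a transcription factor at the end of the WNT pathway, had 6, with 6199, 6799, 1599, 4199, 4399 and 4199 bp in the female list and 8799, 4799, 7199, 4199, 11399 and 3399 bp in the male list. Lrp6, a WNT coreceptor, and Smad2 and Smad3, which carry TGF beta signals, had 3 each.

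Lists of genes for later tissues had primed stretches at shares on both sides of the 19.0% of all genes. Gene length differed between these lists, and the share among all genes was 12.0% under 20 kb and 31.3% at 50 to 100 kb. The median length was 10.9 kb for cardiac factors, 15.75 kb for heart muscle genes and 6.63 kb for mesoderm and endoderm factors. It was 87.9 kb for blood factors and 7.09 kb for neural factors. Cardiac transcription factors had a primed stretch at 3 of 24 genes (Tead1, Smyd1 and Hand1), heart muscle structural genes at 5 of 20, mesoderm and endoderm factors at 4 of 20 (T, Eomes, Gsc and Hhex) and blood factors at 4 of 13, among them Ebf1 with 3. Neural transcription factors had them at 6 of 23, with 5 at Nfib and 3 at Tcf4. Synaptic adhesion and axon genes had them at 11 of 24, 45.8% (25.6 to 67.2%), and the median length of these genes was 765.6 kb, where 40.2% of all genes over 300 kb had one. Odz4 had the 9 given above, with the larger cover in the female list in 6 and in the male list in 3. Robo1, an axon guidance receptor, had 3, in one of which the female list covered 1799 bp and the male list 8799 bp. Fibroblast markers had them at 4 of 20 and housekeeping genes at 2 of 13, with median lengths of 33.4 and 5.4 kb.

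The regulators that the study itself classed as higher in XX or in XY ES cells were counted in the same way. Of the 18 genes on autosomes classed as higher in XX, 5 had a primed stretch (Spic, Dmrtb1, Tbx15, Top2b and Baz2b), and of the 44 classed as higher in XY that are protein-coding in the annotation, 9 did, among them Nr6a1 with 3. Tdrd5, another gene of the XY list, is annotated as a lincRNA and was not counted, and 1 of its TSSs lay inside the primed stretch chr1:158203001-158207999. The shares were 27.8% (9.69 to 53.5%) for the XX list and 20.5% (9.80 to 35.3%) for the XY list, against 19.0% of all genes. Both intervals include 19.0%, and they overlap each other. The median lengths of the lists were 25.8 and 17.6 kb. Among all genes the share was 20.3% at 20 to 50 kb and 12.0% under 20 kb. The study chose these lists from expression in ES cells of the same kind, so they are not independent of the cells. At Spic the 2 stretches had 3199 and 3999 bp in the female list and 3199 and 3799 bp in the male list. At Nr6a1, a nuclear receptor that shuts down pluripotency genes as ES cells differentiate, the 3 had 4399, 3199 and 3999 bp in the female list and 3999, 3799 and 3399 bp in the male list. Lef1, a WNT pathway factor in the XY list, had a stretch with 10999 bp in the female and 4199 bp in the male list. Over the 13 lists, 118 primed stretches lay over a listed gene or within 50 kb of one of its TSSs. The female cover was the larger in 40, the male cover in 73, and 5 were equal. Over all 3759 primed stretches the female cover was the larger in 37.1% and the male cover in 57.4%.

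The chromosomes were similar. Primed stretches made up between 26.1% of distal shared stretches on chromosome 19 and 34.1% on chromosome 14, and numbered between 12.7 per 10 Mb on chromosome 3 and 21.3 on chromosome 11. Sequence that occurs more than once in the genome was scarce. Of runs of 50 bases taken every 200 bp, 2.67% had another exact place in NCBIM37 in primed stretches, 4.86% in active and 2.62% in poised ones. In 9 primed stretches, 50% or more of the runs did, and where reads of such sequence came from cannot be told.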

How the data were processed

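Chromatin immunoprecipitation followed by sequencing was done by the authors for H3K4Me1, H3K27Ac and H3K27Me3 in 2 female and 2 male ES cell lines, from 50-base single-end reads aligned with Bowtie2, the methods name Bedtools for determining read enrichment, and the submitters' processing notes also name deepTools and mm9. The deposited files are 6 lists of regions, 1 per sex and mark, with chromosome, start and end alone, so they hold no count, height or score, and depth per sample is not known from them. All 162760 regions lie on a grid of 200 bp. How regions were delimited from that enrichment, the threshold, the use of IgG and input and any pooling of lines were not given in the sources used. The files held 0 columns of other samples.

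Starts were taken as counted from 0 in the files and are printed counted from 1. H3K4Me1 regions of both lists were merged where they overlapped, and classes were set by overlap of 1 bp with the other lists. Genes, TSSs and bases came from the NCBIM37 annotation and genome. Computation used Python 3.11.15 with numpy 2.4.6, pandas 2.3.3, scipy 1.17.1, matplotlib 3.10.9 and pysam 0.24.0. Merging and overlap were tested on simulated data, and Bedtools 2.31.1 gave the same 3759 stretches. The stretches named are the 5 widest, the 5 farthest from a TSS, the 5 highest and 5 lowest ratios with 2 kb or more in each list, and 3 on either side of the distance limit. One stretch that the rule names is not reported here. The genes named are the 10 with most, the 10 densest and those of the lists. The members and the gene lists were chosen with earlier results of these data known. Renamed genes were matched through the older symbols that RefSeq (GRCm38.p6) gives, which placed Spi1, Tenm4 and Tfcp2l1 (Sfpi1, Odz4 and Tcfcp2l1 in the annotation). Gfi1 and Tdrd5 are annotated as noncoding and were not counted, and Sox1 and Kdm6c were not matched. Alternatives changed the TSSs, the distance, the gap for merging, the lists used, the reach to genes and the motif window. Leaving out models over 1 Mb, leaving out repeated sequence, differences between classes and promoters of host genes were added after seeing the data.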

Additional observations from a re-analysis of the deposited data

How the results depend on the processing

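No paired analysis was possible because no list is named for a single line, and the labels number the female lines 3 and 4 and the male lines 1 and 2. With 1 list per sex and mark, leaving out a line was not done. No direction turned round. Under the alternatives, 90 values kept within their interval (counts of stretches or genes within 1.5 times) and the 37 given here did not. The cause was not tested. Each of the 11 motifs also had a higher share in the wider window, which contains the narrower one, so no share could fall. The primed share of distal shared stretches (29.98%) was 31.07% with the TSSs of all annotated genes, 28.59% and 20.74% where no other mark was allowed within 1 and within 5 kb, 29.14% with regions up to 1 kb apart merged, 27.49% in the widest 50% of each list, 28.24% where bases in both lists made up at least 50%, 35.47% with the female H3K27 lists alone and 42.62% with the male ones alone. The number of primed stretches (3759) was 1338 in the widest 50%, and 738 of the original stretches were kept there unaltered. Allowing no other mark within 5 kb gave an intron share of 60.86%, a median GC content of 45.12% and a width difference between primed and active stretches of -2400 bp (-2800 bp as reported). The widest 50% gave a width of 8799 bp, a cover ratio of 0.9412, an intron share of 60.54%, a GC content of 46.16%, 24 listed genes with a primed stretch (67 as reported), an intron difference between primed and active of 16.96 percentage points (13.66 as reported) and a GC difference between primed and poised of -3.747 points (-3.24 as reported). Bases in both lists of at least 50% gave 4999 bp, a ratio of 0.9394 and a GC content of 45.59%. The female H3K27 lists alone gave an intron share of 55.61%, intron differences of 11.21 points to active and 30.67 points to poised (34.04 as reported), a width difference of -2200 bp and a GC difference of -2.801 points. The male H3K27 lists alone gave 5399 bp, a ratio of 0.9369, an intron share of 53.01%, a GC content of 45.68%, intron differences of 9.547 and 29.21 points, a width difference of -2400 bp and a GC difference of -2.543 points. The gene body alone gave 33 listed genes. Any of the 11 motifs was in 70.18% of the central 2 kb, against 46.37% of the central 1 kb. The ratio of primed stretches per Mb between genes with H3K27Ac alone and with H3K27Me3 alone at the promoter stayed between 3.116 and 3.941 (3.574 as reported) under the 10 alternatives run for it.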
